A study of Saccharomyces cerevisiae with 12 samples.

Results

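Transcripts of 10 yeast genes that encode the main enzymes of glycolysis were followed over 12 arrays: PGI1, PFK1, PFK2, FBA1, TPI1, TDH3, PGK1, GPM1, ENO2 and CDC19. They were chosen by their systematic names among the gene probes and make up 10 of the 6224 genes on the array. Each has 1 probe in 2 spots, and all 10 were well above background on all 12 arrays and were tested, among 5827 genes tested in all. The samples are cultures of the Saccharomyces cerevisiae strain L40 in 3 groups of 4 arrays. The first group stably expressed the intrabody scFv-58F (58F below), a single-chain antibody fragment made inside the cell and directed against histone H3 acetylated at lysine 9. The second expressed scFv-112A (112A below), an intrabody against acetylated HIV-1 integrase, a protein foreign to yeast, which served as the control intrabody. The third was wild type L40 without an intrabody. Per the labels' protocols, 58F and 112A cells were plated and pre-grown on medium lacking leucine and wild type cells on rich YPD medium. All 3 groups then grew overnight in YPD at 30 °C from an OD600 of 0.2 before harvest. The cell density at harvest is not given in the labels, nor whether the 4 samples of a group were separate cultures, so the p-values measure the spread between these samples, which may be technical.

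Glycolysis turns glucose into pyruvate with a net gain of ATP, and in budding yeast it runs at high rate while glucose lasts, feeding ethanol fermentation. In the upper part, hexose phosphates are rearranged, phosphorylated and split. In the lower part, triose phosphates are oxidised to pyruvate. The genes chosen here are among the most strongly transcribed of the genome and are activated by the factors Gcr1, Gcr2, Rap1 and Tye7. Several steps have minor isozymes from duplicated genes, such as TDH1 and TDH2 beside TDH3 and ENO1 beside ENO2. The isozymes are similar in sequence, and signal shared between their probes cannot be told from the values of these genes.

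Before the results, the arrays need a description. The 4 arrays of a group shared 1 slide and 1 scan, giving 3 slides for 3 groups, so slide and group cannot be told apart in any comparison below. The labels were checked on LEU2, the leucine synthesis gene selected for by leucine-free medium. Both intrabody groups were pre-grown on that medium, so the check separates them from wild type and cannot tell 58F from 112A labels. In log2 units relative to the 75th percentile of the array, the scale of every level below, LEU2 stood at 6.15 ± 0.09 in 58F cells, 5.88 ± 0.17 in 112A cells and 1.52 ± 0.07 in wild type (mean ± SD over 4 arrays). The 58F arrays had 75th percentiles of the processed signal from 4739 to 5782, the 112A arrays from 4984 to 5254, and wild type replicates 2 to 4 from 5592 to 6047. Wild type replicate 1 had 9362. That last array stands apart. The results that it changes in call are given with and without it, as are several that it changes in size. No spot of the 10 genes was saturated, and the brightest spot of any of them reached 36.5% to 53.9% of the scanner's saturation value, depending on the array.

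**Figure D1:**
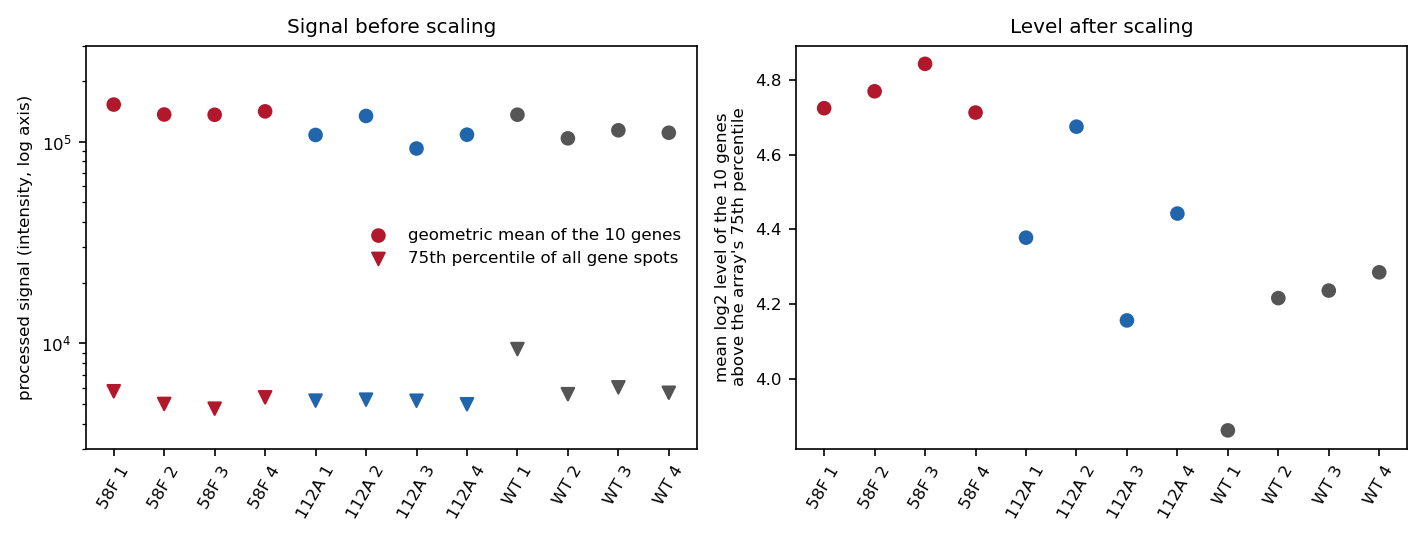
Left, processed signal on each array on a log axis, as the geometric mean of the 10 glycolytic genes (circles) and as the 75th percentile of all gene spots (triangles); right, the mean log2 level of the 10 genes after the 75th percentile was subtracted. Wild type (WT) replicate 1 has the highest 75th percentile, 9362, and after scaling the lowest mean level, 3.86, while the 58F arrays lie at 4.71 to 4.84.

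On wild type replicate 1 the 75th percentile was 1.62 times the mean of the other wild type arrays. The unscaled signals of the 10 genes were 1.05 to 1.58 times the mean of the same arrays, 1.05 times for PGK1, 1.09 for CDC19 and 1.58 for TDH3. After scaling this array therefore held the lowest wild type level for 9 of the 10 genes, TDH3 being the exception. Among the 112A arrays, replicate 2 held the highest level for 10 of 10 genes and replicate 3 the lowest for 9 of 10. The 58F arrays were the closest to each other: the SD of a gene over 4 arrays was 0.04 to 0.11 in 58F cells, 0.14 to 0.33 in 112A cells and 0.06 to 0.32 in wild type on the log2 scale.

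All 10 glycolytic genes were higher in 58F than in wild type. The differences ran from 0.19 (TDH3) to 0.87 (ENO2) on the log2 scale, or 1.14-fold to 1.82-fold, with a median of 0.58. In 112A the genes lay between the other groups, with 9 of 10 means above wild type and 10 of 10 below 58F, and TDH3 was lowest in 112A. The order of the group means was thus 58F, 112A and wild type from high to low for 9 genes, and 58F, wild type and 112A for TDH3. The tests below say which neighbours in this order differ beyond their spread.

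**Figure D2:**
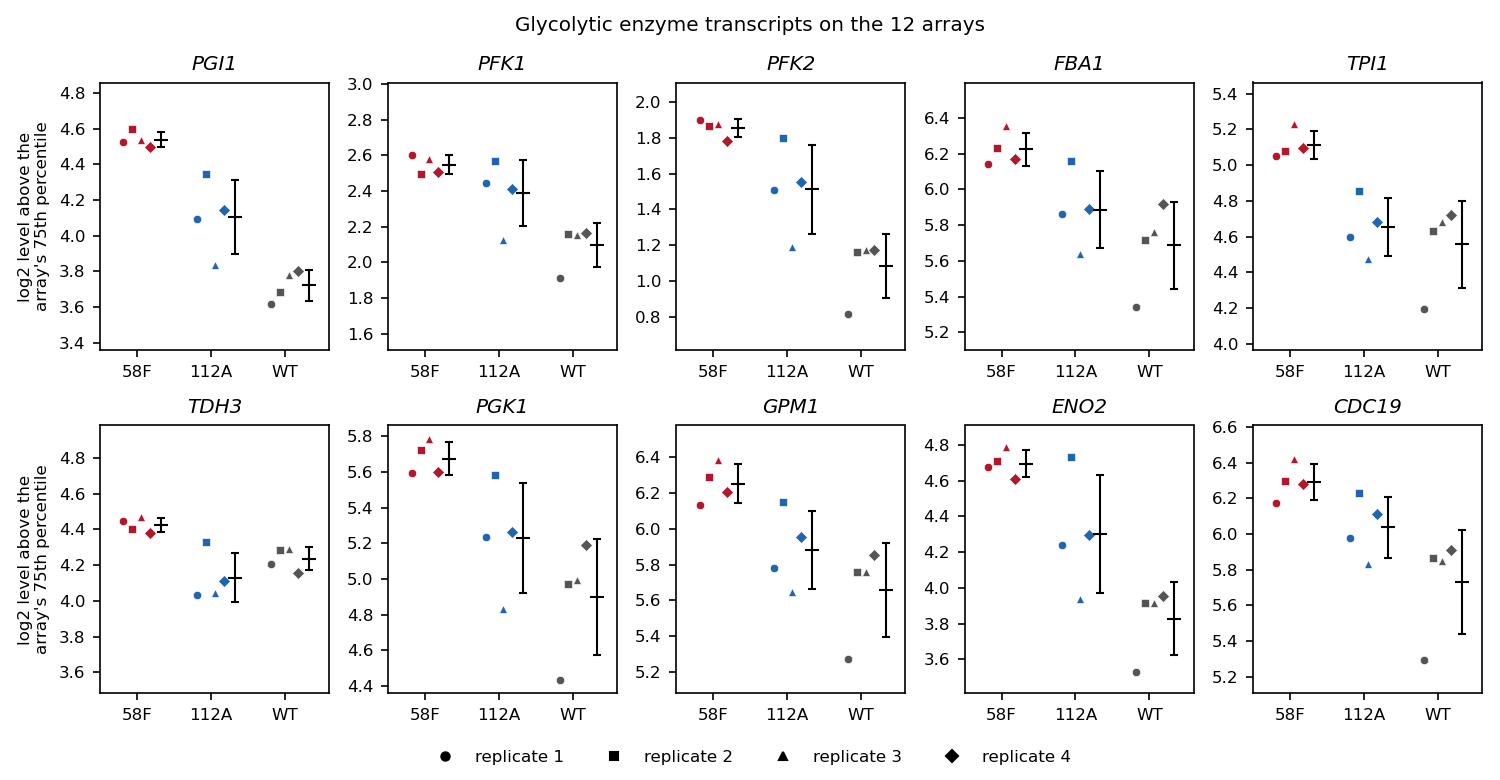
Log2 level of each glycolytic gene above the array's 75th percentile on the 12 arrays, with a symbol per replicate and the mean and SD of 4 arrays in black beside them; every panel spans the same number of log2 units. The 58F arrays lie above all wild type (WT) arrays for every gene, and the 112A arrays spread widest for ENO2.

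The comparison of 58F with wild type sets cells with the anti-acetyl-H3 intrabody against cells without any. With limma across all genes, 10 of 10 glycolytic genes were called higher (adjusted p under 0.05) and 0 lower. Among the 5827 genes, 29.7% were called higher and 32.2% lower, and the median over all genes was -0.012. For 10 of 10 genes the 4 arrays of 58F lay above the 4 of wild type, against 27.3% of all genes. Without wild type replicate 1 the 10 genes were still called higher, and their median difference was 0.45 instead of 0.58.

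In the upper part of the pathway, PGI1 (YBR196C), which interconverts glucose 6-phosphate and fructose 6-phosphate, had log2 levels of 4.53, 4.60, 4.53 and 4.50 on the 58F arrays, 4.09, 4.34, 3.84 and 4.15 on the 112A arrays, and 3.62, 3.69, 3.78 and 3.80 on the wild type arrays. The 3 groups did not overlap. Against wild type, PGI1 was 1.76-fold higher in 58F (log2 difference 0.82 ± 0.09 SE, adjusted p = 1.07e-05) and 0.38 ± 0.09 higher in 112A (adjusted p = 0.00397). Against 112A, 58F was 0.43 ± 0.09 higher (adjusted p = 0.0036). PGI1 was the only glycolytic gene called in all 3 comparisons with no overlap between any pair of groups.

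PFK1 (YGR240C) and PFK2 (YMR205C) encode the alpha and beta subunits of phosphofructokinase, the enzyme that commits fructose 6-phosphate to glycolysis. PFK2 had log2 levels of 1.90, 1.87, 1.88 and 1.78 in 58F, 1.51, 1.80, 1.19 and 1.56 in 112A, and 0.81, 1.16, 1.18 and 1.18 in wild type. All 8 intrabody arrays lay above the wild type arrays, 112A replicate 3 by the smallest margin, and 112A replicate 2 overlapped with 58F. PFK1 averaged 2.55 ± 0.05 in 58F cells, 2.39 ± 0.19 in 112A cells and 2.10 ± 0.12 in wild type (SD, n = 4 arrays each). Against wild type, the subunit genes were higher in 58F by 0.45 ± 0.09 (PFK1, adjusted p = 0.000855) and 0.78 ± 0.12 (PFK2, adjusted p = 0.00012). In 112A they were higher than in wild type by 0.29 ± 0.09 (PFK1, adjusted p = 0.017) and 0.43 ± 0.12 (PFK2, adjusted p = 0.00923). The PFK1 call in 112A was lost without 112A replicate 2 (adjusted p = 0.0506, the highest of a range of 0.00138 to 0.0506 over all alternatives).

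FBA1 (YKL060C), the aldolase that splits fructose 1,6-bisphosphate, averaged 6.22 ± 0.09 in 58F cells, 5.89 ± 0.21 in 112A cells and 5.69 ± 0.24 in wild type. TPI1 (YDR050C), which interconverts both triose phosphates, had 5.05, 5.08, 5.23 and 5.09 in 58F, 4.60, 4.86, 4.47 and 4.68 in 112A, and 4.20, 4.63, 4.68 and 4.72 in wild type. For TPI1 the 58F arrays lay above all others, while 112A and wild type overlapped. Against wild type, 58F was higher by 0.54 ± 0.12 for FBA1 (adjusted p = 0.00274) and by 0.56 ± 0.11 for TPI1 (adjusted p = 0.00111). The differences of 112A from wild type were not called, 0.20 ± 0.12 for FBA1 (95% interval -0.07 to 0.47, adjusted p = 0.205) and 0.09 ± 0.11 for TPI1 (-0.15 to 0.34, adjusted p = 0.508). They were 0.085 for FBA1 and -0.026 for TPI1 without wild type replicate 1. Without that array the differences of 58F from wild type were 0.42 for FBA1 and 0.44 for TPI1, and both stayed called.

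In the lower part, TDH3 (YGR192C), the major glyceraldehyde-3-phosphate dehydrogenase, had log2 levels of 4.45, 4.40, 4.47 and 4.38 in 58F, 4.04, 4.33, 4.05 and 4.11 in 112A, and 4.21, 4.29, 4.29 and 4.16 in wild type. The 58F arrays were the highest, and 112A and wild type overlapped. TDH3 differed least from wild type among the 10 genes: 0.19 ± 0.06 higher in 58F (adjusted p = 0.0215), a call lost with normexp background (0.10, adjusted p = 0.169), without 58F replicate 3 (adjusted p = 0.0552) and without wild type replicate 4 (0.0602), in a range of 0.000794 to 0.169 over all alternatives. Between 112A and wild type TDH3 differed by -0.11 ± 0.06 (95% interval -0.25 to 0.04), which was not called (adjusted p = 0.196). The difference passed the threshold, lower in 112A, with normexp background (adjusted p = 0.0314) and without 112A replicate 2 (adjusted p = 0.0155), in a range of 0.0155 to 0.956 over all alternatives. TDH3 is the gene for which wild type replicate 1 was not the lowest wild type array.

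PGK1 (YCR012W), phosphoglycerate kinase, which makes ATP, had 5.59, 5.72, 5.78 and 5.60 in 58F, 5.24, 5.58, 4.83 and 5.26 in 112A, and 4.43, 4.97, 4.99 and 5.19 in wild type. GPM1 (YKL152C), phosphoglycerate mutase, averaged 6.25 ± 0.11 in 58F cells, 5.88 ± 0.22 in 112A cells and 5.66 ± 0.26 in wild type. For PGK1 the 58F arrays lay above every 112A and wild type array, 112A replicate 2 coming closest. Against wild type, 58F was 1.71-fold higher for PGK1 (0.78 ± 0.16, adjusted p = 0.00154) and 1.51-fold higher for GPM1 (0.59 ± 0.13, adjusted p = 0.00202). The differences of 112A from wild type were 0.33 ± 0.16 for PGK1 (adjusted p = 0.115) and 0.22 ± 0.13 for GPM1 (adjusted p = 0.18), which were not called. Leaving out wild type replicate 1 gave 0.18 for PGK1 and 0.093 for GPM1 in 112A against wild type. In 58F against wild type it gave 0.62 for PGK1 and 0.46 for GPM1, and both stayed called.

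ENO2 (YHR174W), the enolase of fermenting cells, had log2 levels of 4.67, 4.71, 4.79 and 4.61 in 58F, 4.24, 4.73, 3.94 and 4.30 in 112A, and 3.53, 3.92, 3.91 and 3.95 in wild type. The 58F and wild type arrays were far apart, and the 112A arrays reached into both, replicate 2 into 58F and replicate 3 below the highest wild type array. The ENO2 level of 58F cells was 1.82-fold that of wild type (0.87 ± 0.14, adjusted p = 0.000264), and 112A cells exceeded wild type by 0.47 ± 0.14 (adjusted p = 0.0174). The ENO2 difference between 58F and wild type was the largest among the 10 genes under the reported setting, while without wild type replicate 1 it was 0.77 and that of PGI1 0.78. CDC19 (YAL038W), the pyruvate kinase that ends the pathway, had 6.17, 6.30, 6.42 and 6.28 in 58F, 5.98, 6.23, 5.83 and 6.11 in 112A, and 5.30, 5.87, 5.85 and 5.91 in wild type. Its level in 58F was above wild type by 0.56 ± 0.13 (adjusted p = 0.00257), or by 0.42 without wild type replicate 1 (adjusted p = 0.00175), and the range over all alternatives was 8.8e-06 to 0.00915. In 112A the CDC19 difference from wild type was 0.31 ± 0.13 and was not called (adjusted p = 0.0682). Without wild type replicate 1 that difference was 0.16, which is 1 of the alternatives in a range of adjusted p from 0.000264 to 0.171.

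**Figure D3:**
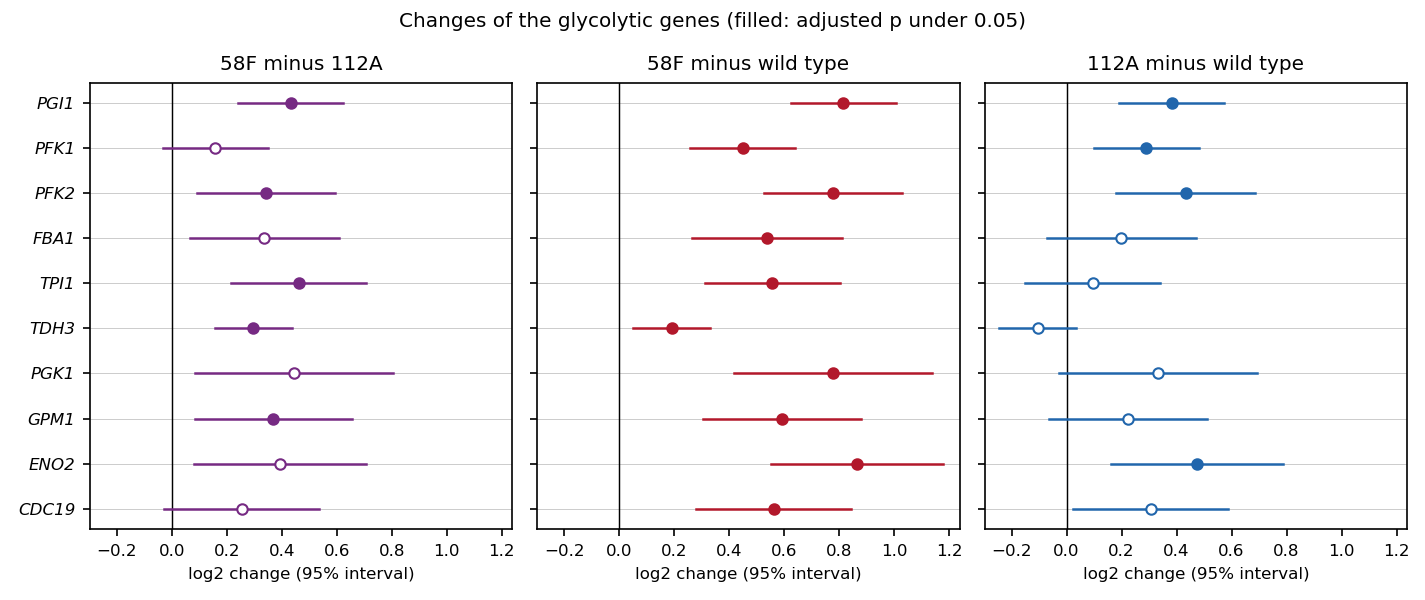
Log2 difference of each glycolytic gene in the 3 comparisons with its 95% interval from the fit, in pathway order from top to bottom; filled points have an adjusted p under 0.05. All 10 points are filled for 58F minus wild type, 5 for 58F minus 112A and 4 for 112A minus wild type.

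Setting 58F against 112A asks what differs between an intrabody that binds acetylated histone H3 and one whose target is foreign to yeast. The 10 genes all had a higher mean in 58F, by 0.16 (PFK1) to 0.46 (TPI1) with a median of 0.36, and 5 were called higher and 0 lower: PGI1, PFK2, TPI1, TDH3 and GPM1. Of all genes tested, 14.1% were called higher and 17.9% lower, and the median over all genes was -0.018. The groups did not overlap for 4 of the 10 genes (PGI1, TPI1, TDH3 and PGK1), against 15.2% of all genes with 58F above 112A. TPI1 was 1.38-fold higher in 58F (0.46 ± 0.11, adjusted p = 0.00932), TDH3 1.23-fold (0.30 ± 0.06, adjusted p = 0.00511), PFK2 1.27-fold (0.34 ± 0.12, adjusted p = 0.0387) and GPM1 1.29-fold (0.37 ± 0.13, adjusted p = 0.0493). The genes that were not called had differences of 0.45 ± 0.16 for PGK1 (adjusted p = 0.0577), 0.39 ± 0.14 for ENO2 (adjusted p = 0.0545), 0.34 ± 0.12 for FBA1 (adjusted p = 0.0573), 0.26 ± 0.13 for CDC19 (adjusted p = 0.151) and 0.16 ± 0.09 for PFK1 (95% interval -0.03 to 0.35, adjusted p = 0.184).

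The count of 5 lies near the threshold and moved with single arrays. It was 3 without any of the 58F replicates 1, 2, 3 or 4 and without 112A replicate 1, 3 or 4, in each case because PFK2 and GPM1 were lost. It was 8 without 112A replicate 2, the array on which all 10 genes were highest in its group. Without wild type replicate 1, which enters this comparison only through the shared estimate of the spread, it was 9. FBA1 (adjusted p = 0.0198), PGK1 (0.0193), ENO2 (0.0342) and CDC19 (0.0278) were then called too. Among all genes 984 were then called higher, against 820 as reported. PGI1, TPI1 and TDH3 kept their call under all 22 alternatives, with adjusted p up to 0.0132, 0.0298 and 0.0189. After quantile scaling 10 of 10 genes were called and after cyclic loess scaling 9, with PFK1 the exception, while 3 were called when arrays were centred on their median. The genes called higher among all genes were 1073, 931 and 759 in that order. The direction of each of the 10 genes was the same under each of these scalings.

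**Figure D4:**
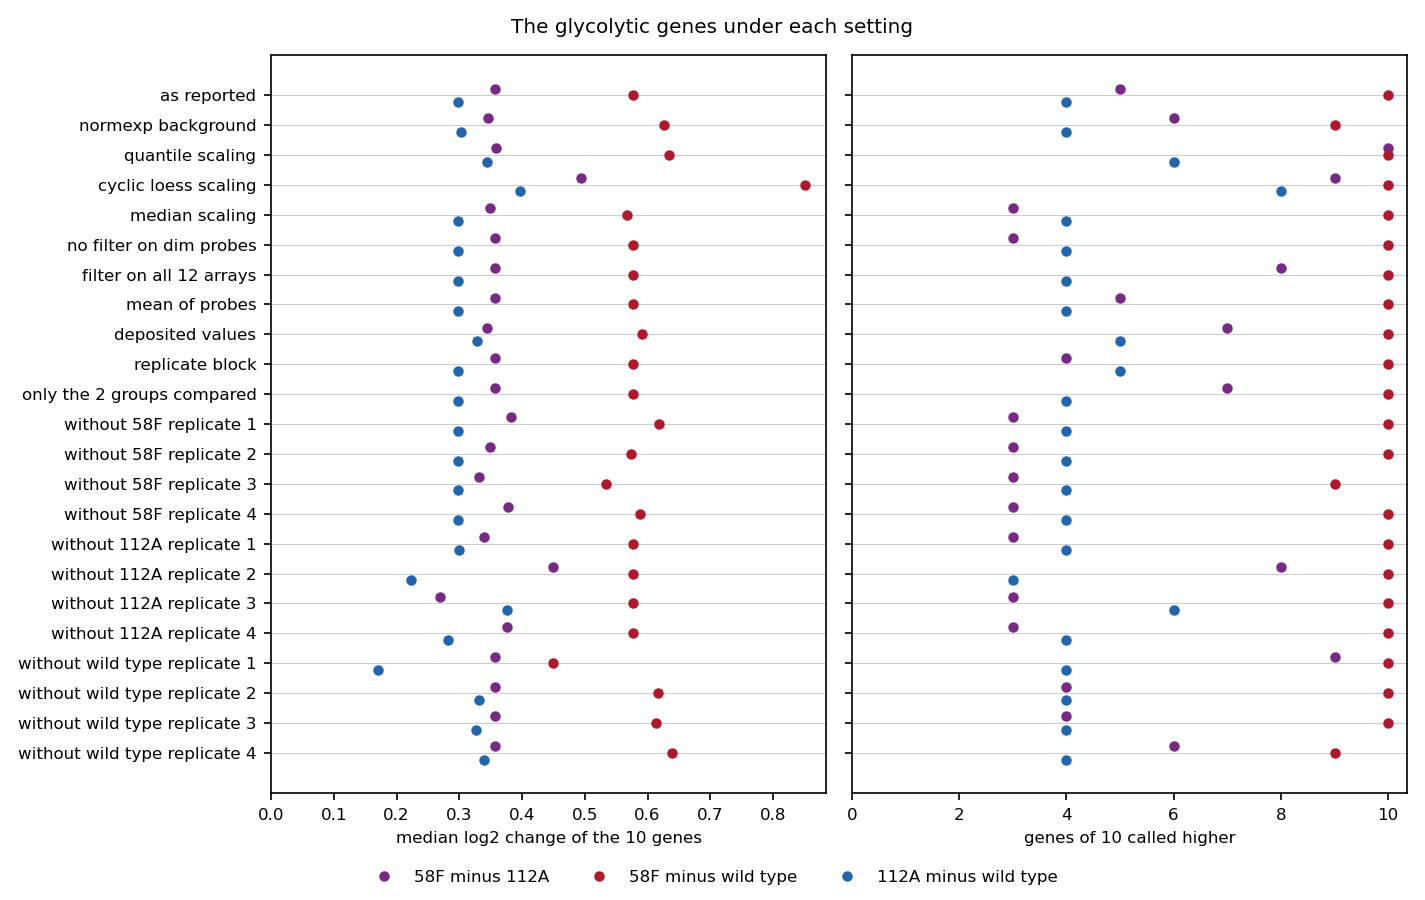
Median log2 difference of the 10 genes (left) and the number of them called higher (right) for each comparison under the reported setting and every alternative, including each array left out in turn. The number called stays at 9 or 10 for 58F minus wild type and runs from 3 to 10 for 58F minus 112A.

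The comparison of 112A with wild type sets cells with the control intrabody, whose intended target is foreign to yeast, against cells without any. The groups also differ in the selection marker and the pre-growth on leucine-free medium, which the intrabody strains share, and in their slide. Whether scFv-112A binds a yeast protein was not tested. The glycolytic genes called higher in 112A were PGI1, PFK1, PFK2 and ENO2, 4 of 10, with 0 called lower, and the median difference of the 10 genes was 0.30. Of all genes tested, 22.8% were called higher and 25.5% lower, and the median over all genes was -0.0051. The arrays of both groups did not overlap for 2 of the 10 genes, PGI1 and PFK2, against 17.8% of all genes with 112A above wild type. PGI1, PFK1 and PFK2 act in the upper part of the pathway, as do FBA1 and TPI1, which were not called. ENO2, with the largest difference of the 10 genes here, acts in the lower part. Without wild type replicate 1 the count stayed at 4 and the median fell to 0.17. Without 112A replicate 3 the count was 6, and without 112A replicate 2 it was 3 higher and 1, TDH3, lower. Both comparisons with wild type use the same 4 wild type arrays, so their values are given side by side and were not correlated.

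Among themselves the 10 genes moved together from array to array. Each gene's level was set against the mean of the other 9, each centred on its own mean, over the 12 arrays. The correlation was 0.95 to 0.99 for 9 genes and 0.65 for TDH3. With the group means removed it was 0.86 to 0.98 for the same 9 and 0.60 for TDH3. The lowest pair within groups was TDH3 with CDC19 (r = 0.45) and the highest FBA1 with PGK1 (r = 0.99). These values describe 12 arrays, which share their scaling factor across genes, and carry no test. Outside the pathway lists, the 5 genes whose levels followed the mean of the 10 most closely over the 12 arrays were KTD1 (r = 0.98), of the DUP240 membrane protein family, TPO2 (0.98), a polyamine exporter, HXT3 (0.98), a low-affinity glucose transporter, PMA1 (0.97), the proton pump of the plasma membrane, and COS8 (0.97), of the subtelomeric COS family. HXT3 averaged 2.18 ± 0.03 in 58F cells, 1.44 ± 0.33 in 112A cells and 0.99 ± 0.36 in wild type.

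Of the 6 minor isozymes of the same steps, 2 were called higher and 1 lower in 58F than in wild type, with 1 and 1 for 58F against 112A and 0 and 0 for 112A against wild type. Of all genes, 29.7% were called higher and 32.2% lower in 58F against wild type. The shares were 14.1% and 17.9% in 58F against 112A, and 22.8% and 25.5% in 112A against wild type. They also apply to the counts of the lists that follow, and no list was tested as a set. With wild type replicate 1 left out, 3 isozymes were called higher in 58F against 112A, TDH1 and TDH2 in addition. After cyclic loess scaling 4 were called higher in 58F against wild type, 4 in 58F against 112A and 3 in 112A against wild type, with 1 lower in each comparison. TDH2 was 0.44 ± 0.09 higher in 58F than in wild type (adjusted p = 0.00122). TDH1, more typical of cells that have left exponential growth, differed by 0.31 ± 0.13 (adjusted p = 0.0543, and in a range of 1.6e-05 to 0.47 over all alternatives). This difference includes wild type replicate 1, where TDH1 was 6.14, against 6.73 to 6.85 on the other wild type arrays. ENO1, the enolase that also serves gluconeogenesis, averaged 5.48 ± 0.09 in 58F cells, 5.34 ± 0.16 in 112A cells and 5.41 ± 0.29 in wild type, and differed from wild type by 0.06 ± 0.13 in 58F (adjusted p = 0.676). It was called higher there after quantile (0.22, adjusted p = 0.0118) and cyclic loess scaling (0.32, adjusted p = 0.00887), in a range of 0.00887 to 0.918. Without wild type replicate 1 the ENO1 estimate was -0.078. The mean levels of TDH1 and ENO1 exceeded those of TDH3 and ENO2 in every group. The wild type means were 6.62 (TDH1), 4.24 (TDH3), 5.41 (ENO1) and 3.83 (ENO2). TDH2, GPM2, GPM3 and PYK2 were below TDH3, GPM1 and CDC19, the main genes of their steps. The terms main and minor were therefore not taken from these levels. Whether levels of different probes can be compared was not tested.

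GPM2 and GPM3 are homologues of the mutase gene GPM1 whose products have little or no mutase activity. They were called in opposite directions in 58F. GPM2 had log2 levels of 1.60, 1.63, 1.71 and 1.53 in 58F, 0.84, 1.24, 0.75 and 0.88 in 112A, and 0.85, 1.09, 1.11 and 1.23 in wild type. All 58F arrays lay above all others. GPM2 was higher in 58F, by 0.69 ± 0.10 over 112A (adjusted p = 0.000688) and by 0.55 ± 0.10 over wild type (adjusted p = 0.00068). GPM3 was much dimmer, with -4.21 ± 0.03 in 58F cells, -3.68 ± 0.18 in 112A cells and -3.46 ± 0.16 in wild type. It was lower in 58F than in 112A, with a difference of -0.52 ± 0.09 (adjusted p = 0.00172), and than in wild type, with -0.75 ± 0.09 (adjusted p = 3.03e-05). PYK2, the second pyruvate kinase, differed by -0.07 ± 0.04 between 58F and 112A and by 0.04 ± 0.04 between 58F and wild type and was not called.

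The step before the 10 genes is the phosphorylation of glucose. Of 4 hexose kinase genes, 2 were called higher and 1 lower in 58F than in wild type, 1 higher and 0 lower in 58F against 112A, and 0 higher and 1 lower in 112A against wild type. HXK1 was called lower in 58F as well once wild type replicate 1 was left out, against 112A (-0.15, adjusted p = 0.00834) and against wild type (-0.24, adjusted p = 0.000338). HXK2, the main hexokinase of glucose-grown cells, averaged 0.51 ± 0.17 more in 58F than in wild type (adjusted p = 0.0219), with 58F replicate 4 left out of the fit because both of its spots were image outliers. The call was lost without 58F replicate 1 (adjusted p = 0.0567), 58F replicate 2 (0.0615) or wild type replicate 2 (0.0505). EMI2, a hexokinase homologue, was 0.22 ± 0.07 higher (adjusted p = 0.0144) and the glucokinase gene GLK1 had an estimate of -0.24 ± 0.06 (adjusted p = 0.00517). The GLK1 estimate was -0.02 after cyclic loess scaling (adjusted p = 0.636).

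The enzymes that make and remove fructose 2,6-bisphosphate, an activator of phosphofructokinase, are encoded by 3 genes. Of these 2 were called higher (PFK26, PFK27) and 1 lower (FBP26) in 58F than in wild type, 0 in either direction in 58F against 112A, and 1 higher (PFK26) and 0 lower in 112A than in wild type. PFK26, a kinase that makes the activator, exceeded its wild type level by 0.26 ± 0.05 in 58F (adjusted p = 0.00149) and by 0.25 ± 0.05 in 112A (adjusted p = 0.00329). With normexp background both calls were lost (adjusted p = 0.0561 and 0.191). The other calls in 58F against wild type were near the threshold. That of PFK27 (0.24, adjusted p = 0.0444), a further kinase of this kind, was lost in 9 of 22 alternatives, with adjusted p up to 0.132. That of FBP26 (-0.15, adjusted p = 0.0402), the phosphatase, was lost in 11 and turned in sign in 1, with adjusted p up to 0.939. Both calls were lost without any of the 58F replicates 1, 2, 3 or 4 and without wild type replicate 2, 3 or 4. FBP26 was called lower in 112A than in wild type too without wild type replicate 1 (-0.15, adjusted p = 0.0126).

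Of the 4 regulators of glycolytic genes, 2 were called higher and 2 lower in 58F than in wild type, 1 higher and 2 lower in 112A than in wild type, and 0 in either direction in 58F against 112A. TYE7, a basic helix-loop-helix activator, had log2 levels of -0.14, -0.11, -0.05 and -0.23 in 58F, -0.51, -0.03, -0.98 and -0.47 in 112A, and -1.12, -1.15, -1.01 and -0.71 in wild type. As for the enzymes, 112A replicate 2 was the highest and replicate 3 the lowest 112A array. TYE7 was 0.86 ± 0.16 higher in 58F than in wild type (adjusted p = 0.000619) and 0.50 ± 0.16 higher in 112A (adjusted p = 0.0233, in a range of 0.00182 to 0.0616 over all alternatives). The TYE7 call in 112A was lost without wild type replicate 1 (adjusted p = 0.0539), wild type replicate 2 (0.0616) or 112A replicate 2 (0.0555). GCR1, the activator after which the glycolysis regulation mutants are named, was 0.33 ± 0.09 higher in 58F than in wild type (adjusted p = 0.00586). RAP1, which also acts at ribosomal protein genes and telomeres, was lower than in wild type, by an estimate of -0.35 ± 0.07 in 58F (adjusted p = 0.000885) and -0.48 ± 0.07 in 112A (adjusted p = 0.000218). GCR2 changed by -0.11 ± 0.04 in 58F against wild type (adjusted p = 0.0496, in a range of 0.00806 to 0.128, and 0.101 without wild type replicate 1) and by -0.16 ± 0.04 in 112A (adjusted p = 0.012).

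**Figure D5:**
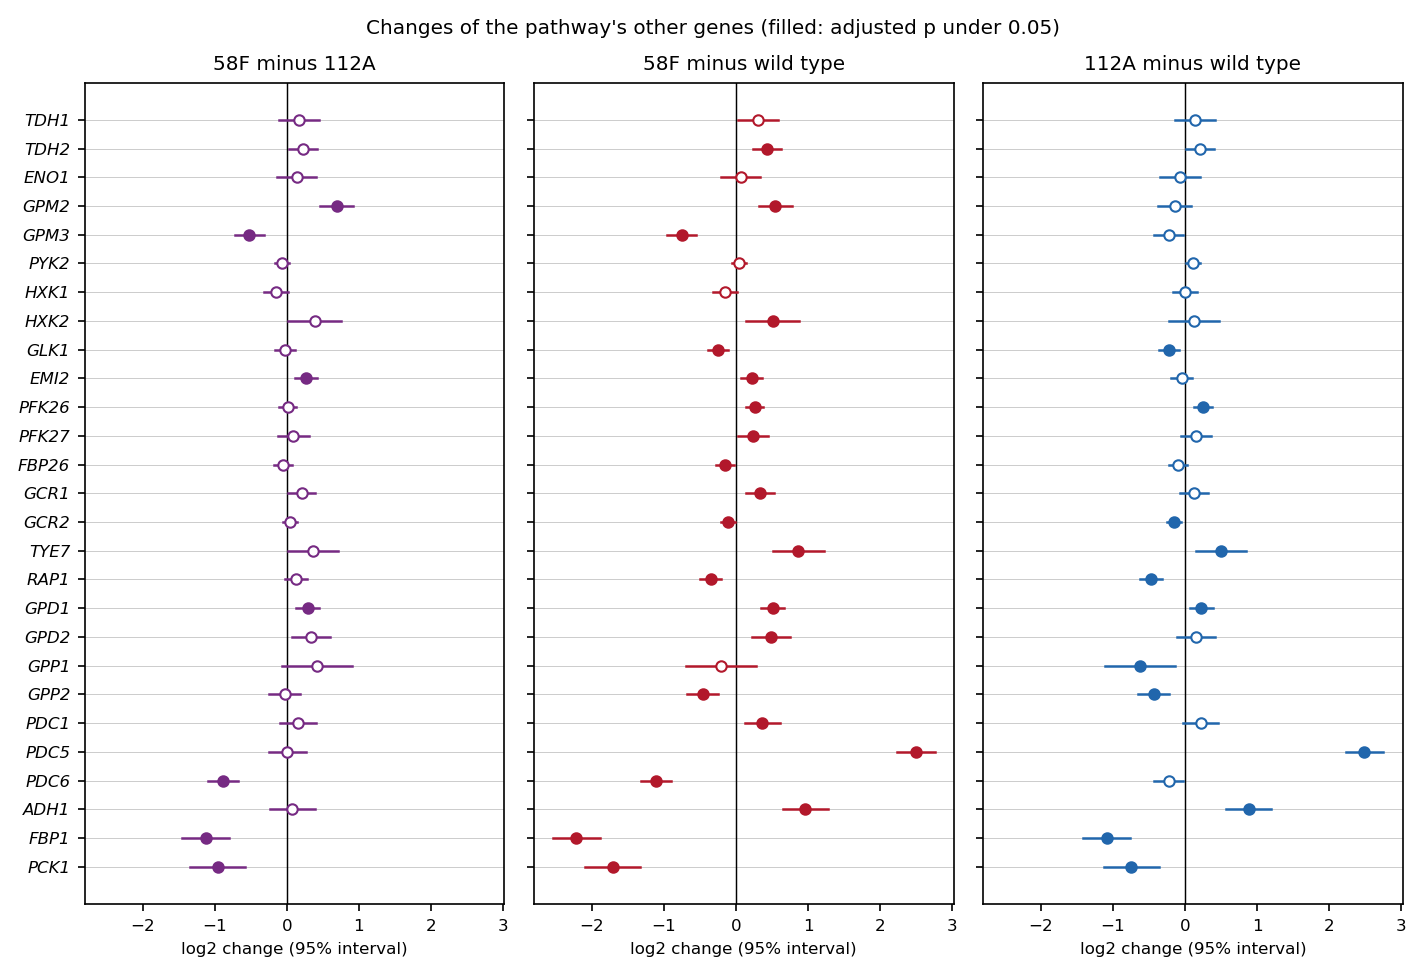
Log2 difference with its 95% interval for the pathway's other genes, from the minor isozymes at the top through the hexose kinases, fructose 2,6-bisphosphate enzymes, regulators, glycerol branch and fermentation genes to the gluconeogenic genes at the bottom; filled points have an adjusted p under 0.05. PDC5 has the largest positive difference in both comparisons with wild type and FBP1 the largest negative one.

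At the branches of the pathway, glycerol synthesis takes carbon from dihydroxyacetone phosphate. Of its 4 genes 2 were called higher and 1 lower in 58F than in wild type, 1 and 0 in 58F than in 112A, and 1 and 2 in 112A than in wild type. Without wild type replicate 1 the last counts were 0 and 1: GPD1 (0.15 instead of 0.22, adjusted p = 0.0526) and the glycerol phosphatase gene GPP1 (-0.42 instead of -0.62, adjusted p = 0.0926) lost their calls. Over the 22 alternatives these calls were lost in 5 for GPD1, also without 112A replicate 2 or 4 or wild type replicate 4, and in 7 for GPP1, also without 112A replicate 1, 3 or 4 or wild type replicate 3. GPD1, the glycerol-3-phosphate dehydrogenase of the osmotic response, was 0.51 ± 0.07 higher in 58F than in wild type (adjusted p = 9.4e-05) and 0.29 ± 0.07 higher than in 112A (adjusted p = 0.0113). GPP2, a glycerol phosphatase, had an estimate of -0.46 ± 0.10 in 58F against wild type (adjusted p = 0.00166). Of 4 fermentation genes, 3 were called higher and 1 lower in 58F than in wild type, 0 and 1 in 58F than in 112A, and 2 and 0 in 112A than in wild type. PDC1, the main pyruvate decarboxylase, was 0.37 ± 0.11 higher in 58F than in wild type (adjusted p = 0.0142), while PDC5, its inducible isozyme, was 2.50 ± 0.12 higher in 58F (adjusted p = 5.69e-08) and 2.49 ± 0.12 higher in 112A (adjusted p = 1.33e-07). Without wild type replicate 1 the PDC1 difference was 0.23. ADH1 exceeded wild type by 0.96 ± 0.14 in 58F (adjusted p = 0.000122) and by 0.88 ± 0.14 in 112A (adjusted p = 0.000465). Without wild type replicate 1 the ADH1 differences were 0.78 and 0.70, the lowest over all alternatives. PDC6, the fermentation gene called lower, differed in 58F by -1.11 ± 0.09 from wild type (adjusted p = 1.7e-06) and by -0.88 ± 0.09 from 112A (adjusted p = 0.000123).

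Gluconeogenesis reverses the pathway through enzymes of its own at the irreversible steps. FBP1, fructose-1,6-bisphosphatase, which opposes phosphofructokinase, averaged 0.10 ± 0.18 in 58F cells, 1.23 ± 0.30 in 112A cells and 2.32 ± 0.21 in wild type, and the 3 groups did not overlap. PCK1, which makes phosphoenolpyruvate from oxaloacetate, averaged 1.61 ± 0.23 in 58F cells, 2.57 ± 0.32 in 112A cells and 3.32 ± 0.28 in wild type. Both genes were called lower in all 3 comparisons. The 10 genes taken as signs of glucose depletion, which are known to rise when glucose runs out (ADH2, ICL1, MLS1, JEN1, HSP12, CTT1, HXK1, GLK1, FBP1 and PCK1), moved with the groups as well: 9 of 10 were called lower in 58F than in wild type, 6 of 10 lower in 58F than in 112A and 8 of 10 lower in 112A than in wild type, with 0 called higher under the reported setting. Of all genes, 32.2%, 17.9% and 25.5% were called lower in these comparisons. Without wild type replicate 1 the counts of the 10 genes called lower were 8 in 58F against wild type, 7 in 58F against 112A and 8 in 112A against wild type. In 58F against wild type HXK1 was then called lower, while ADH2 (adjusted p = 0.0585) and JEN1 (0.0673) lost their calls. After cyclic loess scaling 6 were called lower in 58F against wild type, with ADH2, JEN1 and GLK1 lost and HXK1 called higher, and 4 in 58F against 112A, with ADH2 and HSP12 lost and GLK1 called higher. In 112A against wild type HXK1 was then called higher too. After quantile scaling 7 were called lower in 58F against wild type and 4 in 58F against 112A, where JEN1 was called higher, as it was without 112A replicate 3. Their mean log2 level per array was 2.18 to 2.42 in 58F cells, 2.56 to 3.06 in 112A cells and 3.32 to 3.55 in wild type, with no overlap. HXK1 was the member not called lower in 58F against wild type under the reported setting (-0.15 ± 0.08, adjusted p = 0.106). It was called higher there after cyclic loess scaling (0.12, adjusted p = 0.00868, in a range of 0.000338 to 0.478). The part of culture stage in the differences of the glycolytic genes was not tested.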

How the data were processed

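Total RNA was labelled with Cy3 and hybridised to 1-colour Agilent yeast arrays, 12 in all. The array files hold Agilent Feature Extraction 10.7.3.1 output, per the file headers: the processed signal is a deposited intensity with background subtracted and the spatial trend removed, not scaled between arrays. The authors also deposited log2 values for 5297 probes, whose 75th percentile is 12.8 on every array and which follow the log2 processed signal (r of at least 0.9994 on each array); how they were made beyond this is not given in the sources used here.

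The log2 of the processed signal minus the array's 75th percentile over all gene spots was used, image outliers were left out, and the 2 spots of a probe averaged. The brightest probe stood for a gene with several, and genes above background on at least 4 of 12 arrays were tested. Group means were fitted over all 12 arrays with limma 3.58.1 in R 4.3.3 (lmFit, eBayes, 2-sided), with Benjamini-Hochberg adjustment over 5827 genes per comparison. The threshold for a call was an adjusted p under 0.05. In simulated data for 58F with 112A over 5807 genes, 100 genes were changed by 0.3 and 100 by 0.6, with noise drawn independently for each gene. Of these changes 52% and 88% were called. In the real comparison 14.1% of genes were called higher and 17.9% lower, and the 10 genes moved together. The simulated shares are therefore not the power of that comparison. Levels are log2 means with SD, differences carry the SE of the fit, and n = 4 arrays per group; the number of arrays limits the precision. Named genes are the 10 members, fixed pathway lists with up to 4 called genes each valued, LEU2, and the 5 genes most correlated with the members' mean; the TDH1, ENO1, PYK2 and HXK1 values were added to these. Members and lists were chosen with earlier results of these data known. Gene names come from the R64 annotation; no coordinates are given, since the arrays are annotated on another build. Alternatives were the background, scaling, filter, probe rule, deposited values, replicate block, a fit of only the groups compared, and each array left out.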

Additional observations from a re-analysis of the deposited data

Results flagged for a closer look

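The 44 genes of all lists gave 131 sets of 4 arrays, and 13 of these had an array far from the others by Dixon's test. Chance gives about 1 in 20 for a single set. The genes of an array share its scaling factor, so the sets are not independent and the 13 are not separate events. Of these 13, 10 lie on wild type replicate 1, the array with the highest 75th percentile. Its log2 level was 1.91 for PFK1 (nearest array 2.15), 0.81 for PFK2 (1.16), 5.27 for GPM1 (5.76), 3.53 for ENO2 (3.91) and 5.30 for CDC19 (5.85), the 5 glycolytic genes among the 13. The same array had low levels of TDH1 (6.14), ENO1 (4.98), PDC1 (5.51) and ADH1 (5.40), and a high level of ICL1 (3.56). The others were GLK1 on 58F replicate 3 (4.71), RAP1 on wild type replicate 4 (-1.81) and MLS1 on 112A replicate 2 (-0.39).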

How the results depend on the processing

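For 58F with 112A, the number of glycolytic genes called higher, 5 as reported, was 10 after quantile scaling, 9 after cyclic loess scaling, 3 with arrays centred on the median, 3 with no filter on dim probes and 8 with the filter on all 12 arrays, and 3 to 9 with each array left out. Over the fits with an array left out, all genes called ran from 1395 (without 112A replicate 1) to 2254 (without wild type replicate 1). The median of the 10 genes ran from 0.27 to 0.45 over these fits and was 0.49 after cyclic loess scaling. For 58F with wild type, the median difference was 0.85 after cyclic loess scaling, against 0.58 as reported, and the count called stayed at 9 or 10 under every alternative. For 112A with wild type, 8 were called higher after cyclic loess scaling against 4 as reported, 1 was called lower with normexp background, and with each array left out 3 to 6 were called higher, 0 to 1 lower, with a median of 0.17 to 0.38. Among differences called in the reported fit or the alternative, signs turned for GLK1 in 58F with 112A after cyclic loess scaling (0.10). They also turned for FBP26 in 58F with wild type after quantile scaling (0.044) and for HXK1 in 58F with wild type after cyclic loess scaling (0.12). Signs of differences called in neither fit turned too, such as TPI1 in 112A with wild type (-0.026) and ENO1 in 58F with wild type (-0.078), both without wild type replicate 1. The cause of these moves was not tested. Samples of different groups share only a replicate number, taken from their titles. Same-numbered deviations correlated at -0.17 to 0.19, and 9 of 24 best matches were of the same number. With the replicate block, 4 glycolytic genes were called higher in 58F against 112A, 10 in 58F against wild type and 5 in 112A against wild type.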
